A study of Mus musculus with 6 samples.

Results

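The 10 genes described here encode the enzymes of the pentose phosphate pathway (*G6pdx*, *H6pd*, *Pgls*, *Pgd*, *Rpia*, *Rpe*, *Tkt* and *Taldo1*) together with the NADP-dependent malic enzyme *Me1* and the cytosolic isocitrate dehydrogenase *Idh1*. They were taken by name from the 56691 genes of the deposited table, and all 10 were found and measured. Liver RNA came from 6 pregnant mice. The 3 KPF dams carried floxed *Chrebp* alleles and the Alb-Cre transgene (hChrebp-KO). The 3 WPF dams are labelled wild type, whereas the methods of the study describe them as *Chrebp* flox/flox without Cre. Dams of both groups ate HFrD, a high-fructose diet, while pregnant, and both were taken in late pregnancy. The ages of the dams are not in the labels. Alb-Cre acts in hepatocytes, so that Kupffer cells, endothelial cells and the other cells of the liver keep *Chrebp*. The labels number the libraries KPF 1 to 3 and WPF 2 to 4.

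The pentose phosphate pathway branches from glycolysis at glucose 6-phosphate. Its oxidative branch passes electrons to NADP and so makes NADPH, the reductant that fatty acid and cholesterol synthesis consume and that keeps glutathione and thioredoxin reduced. Its non-oxidative branch interconverts sugar phosphates, which yields ribose 5-phosphate for nucleotides and returns carbon to glycolysis. Malic enzyme and the cytosolic isocitrate dehydrogenase make NADPH outside the pathway, from malate and from isocitrate. The liver draws on these sources when it turns carbohydrate into fat. ChREBP, the carbohydrate response element binding protein, is encoded by *Mlxipl* and is known as a sugar-responsive transcription factor of glycolytic and lipogenic genes, which it binds at the carbohydrate response element, a pair of E-box-like elements with a spacer.

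The promoters of the members were read first, because transcription factors of sugar, sterol and redox control bind short known letters there. RefSeq sequences of GRCm38.p6 gave 13 windows for all 10 members, each running from 250 bases before to 50 bases after a transcription start, and 32851 such windows in all. *Me1*, *Idh1* and *Pgd* had 2 windows each. The stretches below are parts of the windows of *Me1*, *G6pdx* and *Tkt*, a called member from each of the 3 roles, and of *Pklr*, a known ChREBP target that serves as a positive control for the search. They lie at chr9:86695912-86696064 on the minus strand (*Me1*), chrX:74428881-74429030 on the minus strand (*G6pdx*), chr14:30548981-30549130 on the plus strand (*Tkt*) and chr3:89136423-89136522 on the plus strand (*Pklr*). Capitals mark a GC box and the antioxidant response element in *Me1*, the antioxidant response element core (opposite strand) in *G6pdx*, GC boxes in *Tkt* and the carbohydrate response element in *Pklr*.
Me1: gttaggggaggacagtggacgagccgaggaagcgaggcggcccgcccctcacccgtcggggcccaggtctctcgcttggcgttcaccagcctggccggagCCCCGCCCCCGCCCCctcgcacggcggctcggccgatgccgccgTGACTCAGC
G6pdx: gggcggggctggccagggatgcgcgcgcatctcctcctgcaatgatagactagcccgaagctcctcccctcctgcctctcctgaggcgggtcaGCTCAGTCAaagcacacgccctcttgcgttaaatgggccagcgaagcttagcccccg
Tkt: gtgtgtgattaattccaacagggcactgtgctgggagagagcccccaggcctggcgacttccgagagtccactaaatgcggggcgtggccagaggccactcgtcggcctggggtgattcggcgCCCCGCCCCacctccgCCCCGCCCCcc
Pklr: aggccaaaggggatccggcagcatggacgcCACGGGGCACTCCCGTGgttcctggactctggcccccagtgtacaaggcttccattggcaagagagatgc

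Both strands were searched for 7 sets of letters, and a match is a description of the letters only. The carbohydrate response element, written as CACGNG, any 5 bases and CNCGTG, was in 0 of the 13 member windows and in 0.0457% of all windows, and the search found it in *Pklr*, 170 bases before the start. The windows of *Acly* and *Fasn*, which are also known ChREBP targets, were searched too and held no match to it. The lack of a match therefore does not separate the members from known targets. The palindromic E-box CACGTG was in 0 of 13 member windows and in 7.15% of all windows. The antioxidant response element core TGACNNNGC, known as the binding site of NRF2, was in 3 of 13 windows, against 12.4% of all windows. It started 57 bases before the start of *G6pdx*, 6 bases before that of *Me1* and 4 bases after the second start of *Pgd*. In *Me1* the match read TGACTCAGC, a form of the same length with the open bases fixed, which occurs in 0.454% of all windows. The GC box GGGGCGGGG was in a window of *Idh1*, *Me1* and *Tkt* (11.4% of all windows). The CCAAT box was in 6 of 13 windows (37.4% of all), and the sterol element TCACNCCAC in 0 of 13 (1.24% of all). Elements farther from the start were not searched.

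The deposited counts sum to between 10694496 and 14496630 reads per library, with the KPF libraries the smaller ones throughout. Values below are CPM, read counts scaled to library size after TMM normalization, a step that corrects for a few very abundant genes. Levels of different genes are compared as FPKM, which also divides by exonic length. *Mlxipl* itself had 182, 709 and 860 CPM in KPF 1, 2 and 3, against 974, 1277 and 891 CPM in WPF 2, 3 and 4. Its log2 fold change was -0.84 (SE 0.53, adjusted p = 0.584 by edgeR's quasi-likelihood test), and the count takes in all exons although only part of the gene is deleted, so it is a weak check of the labels. Transcripts of mitochondrial DNA took 33.2% to 35% of the reads in KPF and 18.7% to 29.1% in WPF. The library WPF 4 stood nearer to the KPF libraries than to WPF 2 and WPF 3 for 5 of the 6 members called below, all but *Taldo1*, and KPF 2 held muscle RNA (8 muscle genes summing to 3674 CPM, against at most 14.4 CPM elsewhere). KPF 3 had the most cell cycle RNA (8 genes summing to 404 CPM, against 34.9 to 150 CPM elsewhere). Results are therefore given with and without these libraries where a call depends on them. Chi-square per gene was at least 39.6 in every pair within a group, so that no replicates of a group agreed within sampling noise.

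Of the 10 members, 6 were called lower in KPF and 0 higher, against 3.98% called lower and 5.83% called higher among all 10866 tested genes. A gene was called when edgeR's quasi-likelihood test gave an unadjusted p under 0.05 and the change was at least 1.5-fold. The balance over all genes depended on scaling, since 59.5% of called genes were higher in KPF after TMM, 34.1% after scaling to library totals, 29.1% with limma on log2(FPKM + 0.1) and 14.3% with limma on TPM, but under each of these every called member was lower. The 6 were *Me1*, *G6pdx*, *Pgd*, *Rpia*, *Tkt* and *Taldo1*, and the 4 that were not called were *H6pd*, *Pgls*, *Rpe* and *Idh1*. After Benjamini-Hochberg adjustment over all tested genes, edgeR left 0 genes (0%) below 0.05, with a smallest adjusted p of 0.397, while 1176 genes (10.8%) had an unadjusted p under 0.05. DESeq2 put 2 members below an adjusted p of 0.05, *Me1* and *Pgd*, with 0.699% of tested genes there and lower in KPF. Without a filter on low genes edgeR put 4 members there, *Me1*, *Pgd*, *G6pdx* and *Rpia*, against 0.319% of all genes then tested that passed 0.05 and were lower in KPF. In that fit the unadjusted edgeR p of *Me1* was 8.76e-07, against 0.00245 in the main fit, at log2 fold changes of -3.42 and -3.35. With edgeR's own filter (filterByExpr), or with a mean FPKM of at least 5, 0 members passed. The log2 fold change was below 0 for 10 of 10 members, against 48.6% of all tested genes, but those of *H6pd* (-0.02) and *Rpe* (-0.13) went above 0 when single libraries were left out. Its median over the members was -0.83, against 0.02 over all tested genes. All KPF libraries lay below all WPF libraries for 3 members, *Me1*, *Tkt* and *Taldo1*, whereas 8.15% of all tested genes had this order. Without WPF 4, 5 members were called (*Taldo1* was not), against 4.92% of all tested genes called lower. Without WPF 3, 2 were called, *Pgd* and *Me1*, against 2.26%. Without KPF 3, 5 were called, *Me1*, *Pgd*, *Taldo1*, *Rpe* and *Idh1*, against 6.52%. In bulk liver, fewer hepatocytes and less RNA per hepatocyte cannot be told apart.

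**Figure D1:**
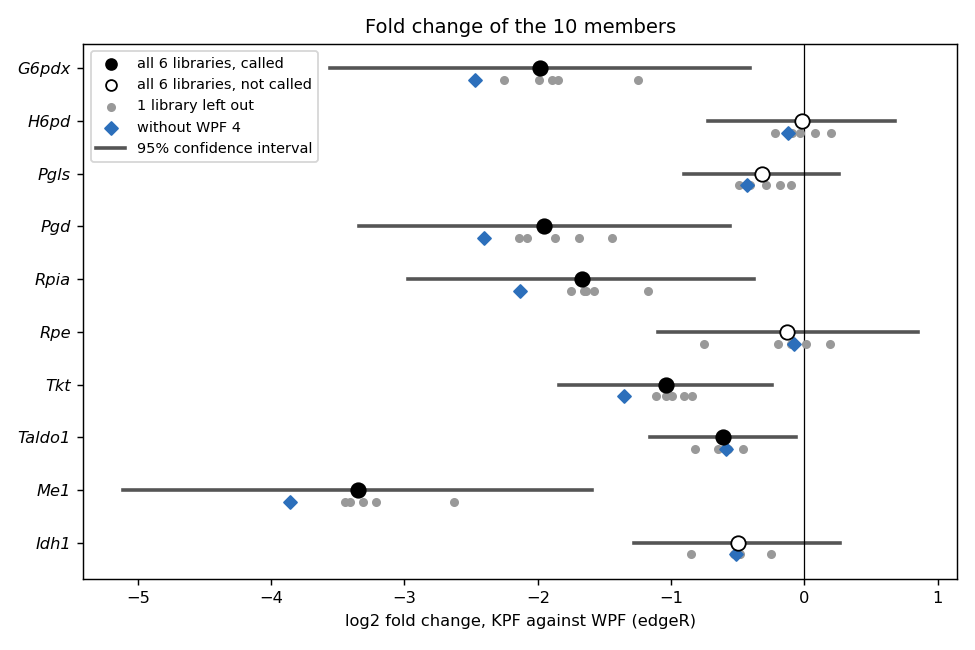
log2 fold change of each member in KPF against WPF from edgeR (circles, filled where called) with its 95% confidence interval (line), and below each the value with 1 library left out (grey, blue diamond for WPF 4). *Me1* lies farthest from 0 at -3.35, and the intervals of *H6pd*, *Pgls*, *Rpe* and *Idh1* include 0.

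*G6pdx* (ENSMUSG00000031400, chromosome X) encodes glucose-6-phosphate dehydrogenase, the committed and rate-setting step of the oxidative branch. KPF 1, 2 and 3 had 3.57, 5.47 and 3.31 CPM, and WPF 2, 3 and 4 had 16.1, 29.4 and 3.56 CPM. WPF 2 and WPF 3 stood above all KPF libraries, and WPF 4 lay inside the KPF range, so that the groups overlapped. The KPF mean was 4.12 ± 1.18 CPM and the WPF mean 16.4 ± 12.9 CPM (SD, n = 3 each). The log2 fold change was -1.98 (95% interval -3.56 to -0.41), 3.96-fold lower in KPF, with p = 0.0199 and adjusted p = 0.43 by edgeR's quasi-likelihood test, and the exact two-sided permutation p was 0.3. Without WPF 4 it was -2.47 (adjusted p = 0.106 by edgeR). With any other library left out, the edgeR adjusted p was 0.341 to 0.823. The call was lost without KPF 1 (-1.89), without KPF 3 (-1.85) and without WPF 3 (-1.25). The counts behind *G6pdx* were small, 34 to 61 reads in the KPF libraries and 60 in WPF 4.

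*G6pdx* overlaps *Ikbkg*, a gene of the opposite strand that held 5027 reads over the 6 libraries against 789 of *G6pdx*. The sources used here do not say whether counting used the strand, so reads of the shared bases could belong to either. *Ikbkg* did not move with *G6pdx*: its log2 fold change was -0.01 (SE 0.27, edgeR adjusted p = 0.988).

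*Pgls* encodes 6-phosphogluconolactonase, which opens the lactone made by glucose-6-phosphate dehydrogenase. The KPF libraries had 22.2, 28.1 and 18.5 CPM and the WPF libraries 36.4, 24.9 and 24.4 CPM. KPF 2 lay above both WPF 3 and WPF 4. The log2 fold change was -0.32 with a 95% interval of -0.90 to 0.26 (edgeR adjusted p = 0.664), so that a decrease of the size fitted for *Pgd* lies outside the interval.

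*Pgd* (ENSMUSG00000028961, chromosome 4) encodes 6-phosphogluconate dehydrogenase, which makes the second NADPH of the oxidative branch. Its CPM was 39.5, 19.5 and 41.7 in KPF 1, 2 and 3, and 144, 207 and 38.5 in WPF 2, 3 and 4. As for *G6pdx*, WPF 2 and WPF 3 were high and WPF 4 lay among the KPF libraries. The group means were 33.6 ± 12.2 CPM (KPF) and 130 ± 85.2 CPM (WPF; SD, n = 3 each). *Pgd* was 3.87-fold lower in KPF, a log2 fold change of -1.95 (95% interval -3.34 to -0.56, p = 0.0121 and adjusted p = 0.43 by edgeR, exact two-sided permutation p = 0.3). It was called whichever library was left out, with log2 fold changes from -2.40 (without WPF 4) to -1.44 (without WPF 3). DESeq2 gave it an adjusted p of 0.0362.

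*H6pd* encodes the hexose-6-phosphate dehydrogenase of the endoplasmic reticulum, which carries out the same first steps on the luminal side and keeps a separate NADPH pool. The KPF libraries had 372, 197 and 324 CPM and the WPF libraries 342, 300 and 264 CPM, with the highest and the lowest value both in KPF. The log2 fold change was -0.02 with a 95% interval of -0.72 to 0.68 (edgeR adjusted p = 0.98). Per length, *H6pd* was the more abundant of the pair in every library, at 36.9 to 68.7 FPKM against 0.95 to 10.2 FPKM for *G6pdx*. The log2 ratio of *G6pdx* to *H6pd* (FPKM + 0.1) averaged -5.29 ± 0.83 in KPF and -3.85 ± 1.40 in WPF, a difference of -1.44 with groups that overlapped (exact two-sided permutation p = 0.2, 0.4 after adjustment over 4 ratios). No ratio could pass 0.05, since the smallest exact p is 0.1 with 3 dams against 3.

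**Figure D2:**
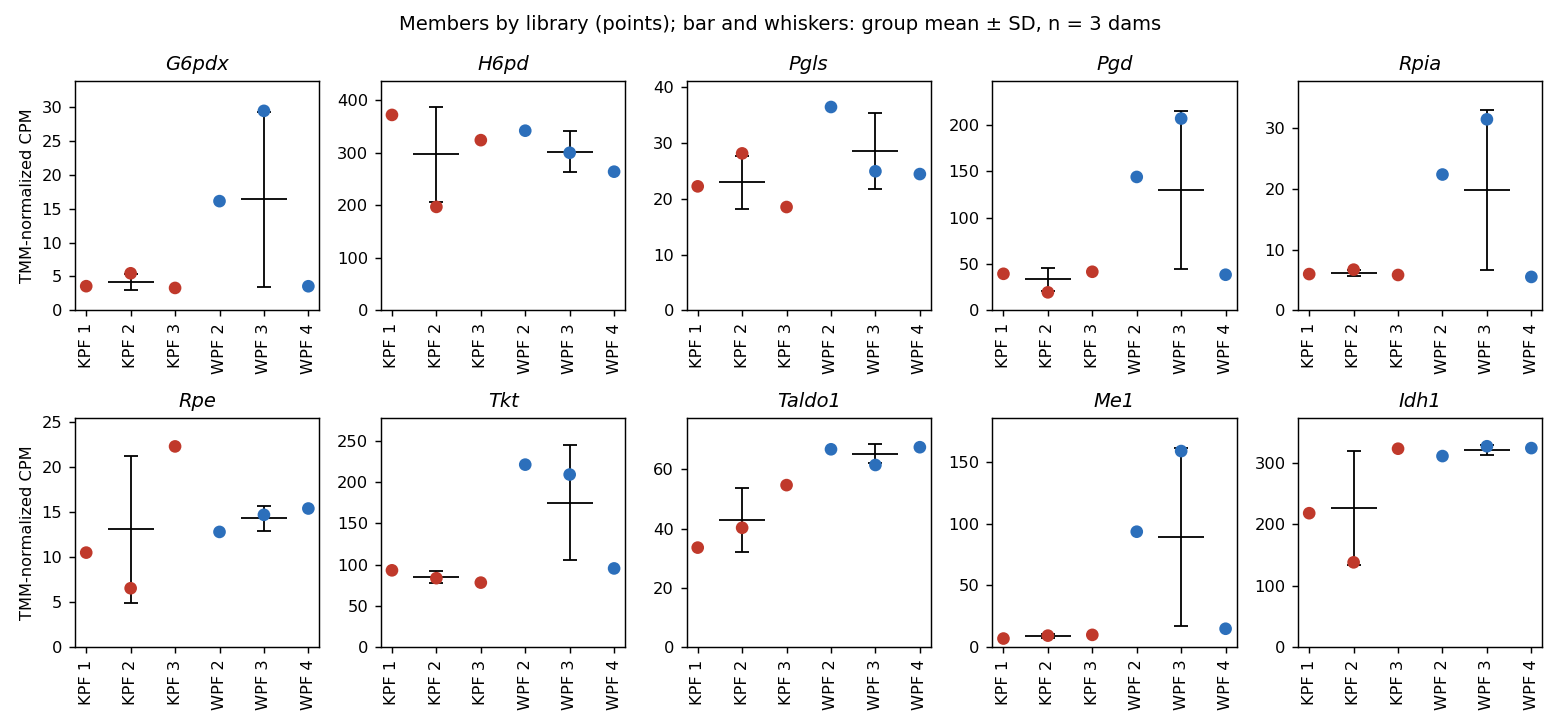
TMM-normalized CPM of the 10 members in each library (red, KPF; blue, WPF), with the group mean (bar) and SD (whiskers), n = 3 dams per group; each panel has its own axis from 0. In *G6pdx* and *Pgd* the point of WPF 4 lies within the KPF points, in *Rpia* it is the lowest of the 6 and in *Taldo1* the highest.

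*Rpia* (ENSMUSG00000053604, chromosome 6) encodes ribose-5-phosphate isomerase, which makes ribose 5-phosphate from ribulose 5-phosphate. KPF 1, 2 and 3 had 5.99, 6.72 and 5.84 CPM, and WPF 2, 3 and 4 had 22.4, 31.5 and 5.52 CPM. The KPF libraries lay within 1.15-fold of each other, and WPF 4 was the lowest of all 6. *Rpia* was 3.19-fold lower in KPF, a log2 fold change of -1.67 (95% interval -2.97 to -0.38, p = 0.0179 and adjusted p = 0.43 by edgeR, exact two-sided permutation p = 0.4). Without WPF 4 the value was -2.13 (edgeR adjusted p = 0.072). With any other library left out, the edgeR adjusted p was 0.319 to 0.823. The call was lost without KPF 3 (-1.64) and without WPF 3 (-1.17).

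*Rpe* encodes ribulose-5-phosphate 3-epimerase, which shares its substrate with the isomerase and makes xylulose 5-phosphate. Its CPM was 10.5, 6.54 and 22.3 in KPF and 12.8, 14.7 and 15.4 in WPF. The KPF libraries enclosed the WPF libraries, with a range of 3.41-fold in KPF and 1.2-fold in WPF. The log2 fold change was -0.13 (95% interval -1.10 to 0.85, edgeR adjusted p = 0.925). Without KPF 3 it was -0.75 and *Rpe* was called. *Rpe* overlaps *Kansl1l* of the opposite strand, which held 959 reads against 1023 of *Rpe*, so its level carries the same doubt about strand as that of *G6pdx*.

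*Tkt* (ENSMUSG00000021957, chromosome 14) encodes transketolase, which moves carbon pairs between sugar phosphates and links the pathway back to glycolysis. KPF 1, 2 and 3 had 93, 83.5 and 78.1 CPM, and WPF 2, 3 and 4 had 221, 209 and 95.3 CPM. The groups did not overlap, but WPF 4 exceeded KPF 1 by little. The KPF mean was 84.8 ± 7.54 CPM and the WPF mean 175 ± 69.2 CPM (SD, n = 3 each). *Tkt* was 2.06-fold lower in KPF, a log2 fold change of -1.04 (95% interval -1.84 to -0.24, p = 0.0173 and adjusted p = 0.43 by edgeR), and the exact two-sided permutation p was 0.1, the smallest that 3 dams against 3 allow. The call was lost without KPF 3 (-0.99), without WPF 2 (-0.84) and without WPF 3 (-0.90), and the value was -1.35 without WPF 4.

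*Taldo1* (ENSMUSG00000025503, chromosome 7) encodes transaldolase, the other carbon-transfer enzyme of the branch. Its CPM was 33.6, 40.3 and 54.7 in KPF 1, 2 and 3, and 66.8, 61.5 and 67.5 in WPF 2, 3 and 4. The groups did not overlap, and here WPF 4 stood with the other WPF libraries, which lay within 1.1-fold of each other. *Taldo1* was 1.52-fold lower in KPF, just past the 1.5-fold limit, with a log2 fold change of -0.61 (95% interval -1.16 to -0.06, p = 0.0346 and adjusted p = 0.441 by edgeR, exact two-sided permutation p = 0.1). The call was lost without KPF 1 (-0.46), KPF 2 (-0.57), WPF 2 (-0.59), WPF 3 (-0.65) or WPF 4 (-0.59). With library totals in place of TMM it was called, at -0.75. The log2 ratio of *Tkt* to *Taldo1* averaged -0.74 ± 0.48 in KPF and -0.43 ± 0.72 in WPF (difference -0.31, exact two-sided permutation p = 0.6).

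*Me1* (ENSMUSG00000032418, chromosome 9) encodes the cytosolic NADP-dependent malic enzyme, which turns malate into pyruvate and supplies NADPH for fatty acid synthesis. KPF 1, 2 and 3 had 6.95, 9.32 and 9.93 CPM, and WPF 2, 3 and 4 had 93.6, 159 and 14.9 CPM. The groups did not overlap. WPF 2 stood 10.7-fold, WPF 3 18.2-fold and WPF 4 1.71-fold above the KPF mean. The KPF mean was 8.74 ± 1.57 CPM and the WPF mean 89.2 ± 72.2 CPM (SD, n = 3 each). *Me1* was 10.2-fold lower in KPF, with a log2 fold change of -3.35 (SE 0.76, 95% interval -5.11 to -1.59, p = 0.00245 and adjusted p = 0.415 by edgeR, exact two-sided permutation p = 0.1). *Me1* was called whichever library was left out. The value was -3.86 without WPF 4, where the edgeR adjusted p reached 0.0322 (0.046% of tested genes passed 0.05 and were lower in KPF). With any other library left out, the edgeR adjusted p was 0.224 to 0.823. Without WPF 3 the value was -2.63. DESeq2 on all 6 libraries gave an adjusted p of 0.000149.

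*Idh1* (ENSMUSG00000025950, chromosome 1) encodes the cytosolic NADP-dependent isocitrate dehydrogenase. Its CPM was 218, 138 and 323 in KPF 1, 2 and 3, and 311, 327 and 324 in WPF 2, 3 and 4. The WPF libraries lay within 1.05-fold of each other, and KPF 3 reached their level while KPF 2 was lowest. The log2 fold change of -0.50 did not pass the test (95% interval -1.28 to 0.27, edgeR adjusted p = 0.604). It was -0.25 without KPF 2 and -0.85 without KPF 3, where *Idh1* was called.

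Per length, the order of the members by mean FPKM was *Idh1*, *H6pd*, *Taldo1*, *Tkt*, *Me1*, *Pgd*, *Pgls*, *Rpe*, *G6pdx* and *Rpia*, from percentile 96.6 to percentile 31.3 of the tested genes. *Idh1* ranged from 48.8 to 136 FPKM and *Rpia* from 0.97 to 6.29 FPKM. *Me1* and *Pgd*, neighbours in this order at percentiles 79.7 and 79.4, changed places between libraries, since *Me1* was the higher in WPF 2 and WPF 3 and the lower in the other 4. The 2 dehydrogenases of the cytosolic oxidative branch were unequal in every library, with *Pgd* at 2.97 to 34.4 FPKM and *G6pdx* at 0.95 to 10.2 FPKM. FPKM of mRNA says nothing of the amount or the rate of the enzymes.

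The summed FPKM of the cytosolic NADP-reducing enzymes *G6pdx*, *Pgd*, *Me1* and *Idh1* was 85, 55.9 and 112 in KPF 1, 2 and 3 and 144, 215 and 149 in WPF 2, 3 and 4. *Idh1* made up 87.3% to 92% of the sum in the KPF libraries and 91.4% in WPF 4, but 68.4% in WPF 2 and 58.7% in WPF 3. *Me1* made up 2.04% to 4.26% in KPF, 3.02% in WPF 4, 14.8% in WPF 2 and 20.6% in WPF 3. Thus the makeup in WPF 4 was close to that of the KPF libraries, whereas its FPKM sum was above all of them. FPKM is scaled to library totals without TMM, so these sums also carry differences of scaling between libraries. In CPM after TMM, *Idh1*, the largest part, was at 323 in KPF 3 and 324 in WPF 4. Without *Idh1*, the sum of the other 3 was 7.09 to 8.98 FPKM in KPF, 12.8 in WPF 4, 45.6 in WPF 2 and 88.9 in WPF 3. The log2 ratio of *Me1* to *Idh1* (FPKM + 0.1) was -5.37, -4.30 and -5.44 in KPF and -2.20, -1.51 and -4.89 in WPF, a difference of means of -2.17 (exact two-sided permutation p = 0.2, 0.4 after adjustment over 4 ratios, where 0.1 is the smallest p possible). WPF 4 lay within the KPF range of this ratio.

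**Figure D3:**
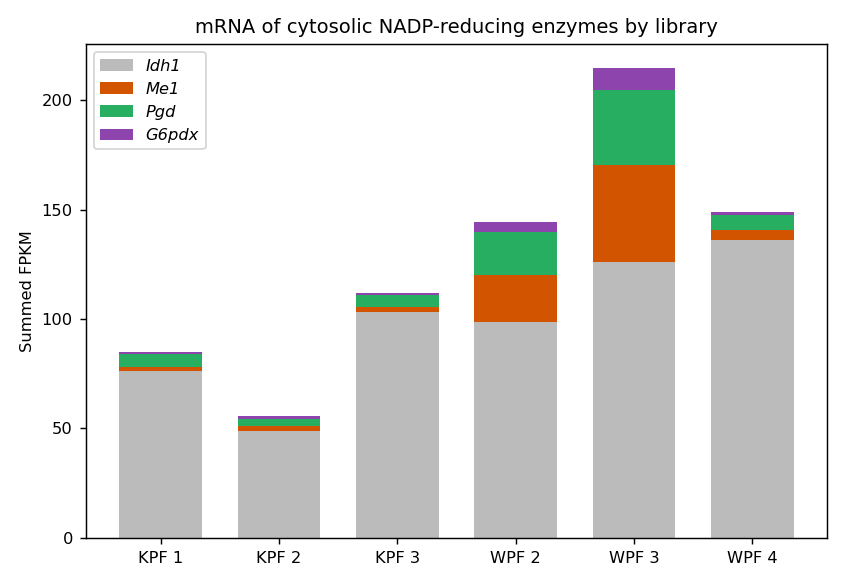
Summed FPKM (scaled to library totals, without TMM) of *Idh1* (grey), *Me1* (orange), *Pgd* (green) and *G6pdx* (purple) in each library. The coloured parts reach 88.9 FPKM in WPF 3 and 45.6 in WPF 2, and stay between 7.09 and 12.8 in the other 4 libraries.

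The called members differed in how far the WPF libraries spread. From the lowest to the highest WPF library the range was 10.7-fold for *Me1*, 8.26-fold for *G6pdx*, 5.7-fold for *Rpia*, 5.38-fold for *Pgd* and 2.32-fold for *Tkt*, but 1.1-fold for *Taldo1*. In KPF the same 6 genes ranged from 1.15-fold (*Rpia*) to 2.13-fold (*Pgd*). The level of WPF 4 against the KPF mean was 0.865-fold for *G6pdx*, 0.893-fold for *Rpia*, 1.15-fold for *Pgd* and 1.12-fold for *Tkt*, so that for these 4 genes the difference between the groups lay in WPF 2 and WPF 3. The uncalled *Idh1* had the reverse spread, 2.34-fold in KPF and 1.05-fold in WPF.

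Likeness of pattern was measured as the root mean square difference of log2 CPM, each gene centred on its own mean, over the 6 libraries, as a description with no test. All genes share these libraries and their 2 groups. *G6pdx* and *Rpia* were each other's nearest gene among all tested genes, 0.24 apart on the log2 scale. Next to *G6pdx* came *Aacs* (0.31), the acetoacetyl-CoA synthetase, and *Mpp4* (0.34), and next to *Rpia* came *Aacs* and *Gpam* (0.25 each), *Gpam* being the acyltransferase that starts glycerolipid synthesis. *Pgd* lay nearest to *Gpd2* (0.23), the mitochondrial glycerol-3-phosphate dehydrogenase, *Aqp8* (0.27), a water channel, and *Gm26714* (0.31). *Me1* lay nearest to ENSMUSG00000120528 (0.16), a gene with no symbol here and at most 7.05 CPM, and then to *Acly* (0.20) and *Fasn* (0.33). *Tkt* was nearest to *Osbpl11* (0.08), *2310022B05Rik* (0.16) and *Ctsl* (0.17). *Taldo1* was nearest to *Top2b*, *Pomp* (0.06 each) and *Pgrmc1* (0.07). Between members, *Me1* was 0.69 from *G6pdx* and 1.56 from *Idh1*, while *Idh1* was 0.23 from *Rpe* and 0.29 from *Taldo1*.

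**Figure D4:**
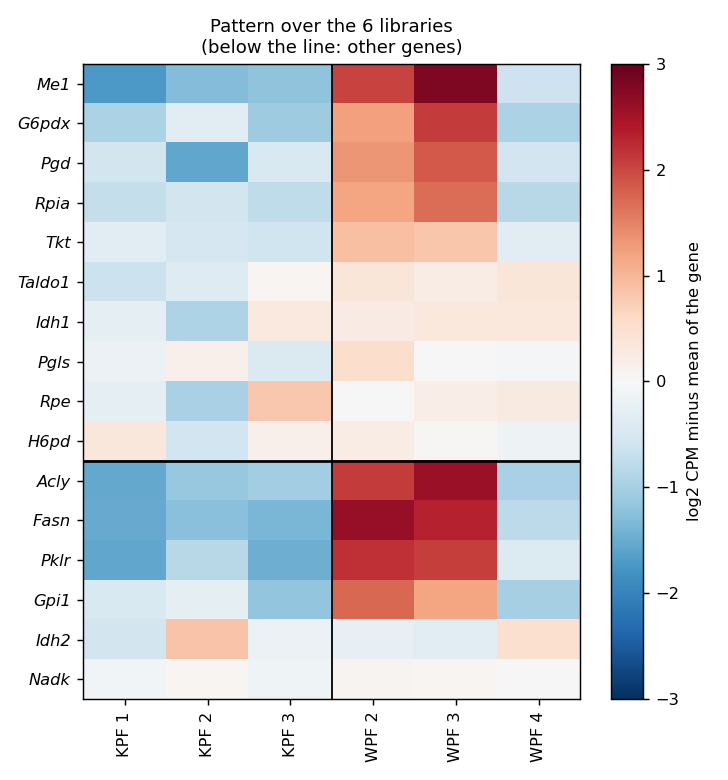
log2 CPM of each member and, below the line, of 6 other genes in each library, minus the mean of the gene. *Me1*, *G6pdx*, *Pgd*, *Rpia* and *Tkt* are above their mean in WPF 2 and WPF 3 only, as are *Acly*, *Fasn*, *Pklr* and *Gpi1*, while *Taldo1* is above its mean in KPF 3 and in all WPF libraries.

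The other genes around the pathway were mostly not called. Over all tested genes 3.98% were called lower and 5.83% higher. Of 14 genes of sugar and pentose handling, 11 were tested and 1 was called, lower: *Gpi1*, the glucose-6-phosphate isomerase that competes with *G6pdx* for its substrate, with 173, 198 and 104 CPM in KPF and 789, 539 and 119 CPM in WPF (log2 fold change -1.61, edgeR adjusted p = 0.443). The call of *Gpi1* was lost without KPF 1, WPF 2 or WPF 3, where the list had 0 called lower, and the list had 2 called lower without KPF 2 and 2 called higher without KPF 3. The median log2 fold change of the 11 was 0.03. *G6pd2*, *Tktl1* and *Tktl2*, copies of *G6pdx* and *Tkt*, had 0 reads in every library, which allows up to 3 reads each, or 0.178 to 0.292 CPM. Of 12 other genes of NADPH supply or one-carbon metabolism, 7 were tested, 0 were called (1 without WPF 4) and the median was -0.11. Among them *Idh2*, the mitochondrial counterpart of *Idh1*, was at 39.2, 104 and 51.2 CPM in KPF and 48.9, 45.6 and 80.1 CPM in WPF (log2 fold change 0.15), and *Nadk*, the kinase that makes NADP from NAD, had a log2 fold change of -0.11. The log2 ratio of *Idh1* to *Idh2* differed by -0.66 between the groups (exact two-sided permutation p = 0.5).

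Of 12 genes that move citrate, malate and pyruvate between mitochondria and cytosol, all were tested and 3 were called lower, with a median of -0.38 (3.98% of all tested genes were called lower). These were *Acly*, the ATP citrate lyase (log2 fold change -3.08), *Cs*, the citrate synthase (-1.07), and *Pcx*, the pyruvate carboxylase (-0.91). *Acly* was at 37.7, 49.2 and 52.6 CPM in KPF and 465, 656 and 55.3 CPM in WPF, with WPF 4 near the KPF libraries as for *Me1*. The edgeR adjusted p was 0.43 for *Acly* and *Pcx* and 0.438 for *Cs*. The list had 1 called gene without WPF 2 and 2 to 4 when another library was left out.

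Genes of the routes that consume NADPH were read by route, and the lists were not tested against each other. Not every listed enzyme uses NADPH itself. The acetyl-CoA carboxylases *Acacb* and *Acaca* and the elongase *Elovl6* do not, and the desaturases *Scd1* and *Sc5d* do not take electrons from NADPH directly. Of 10 genes of fatty acid synthesis and desaturation, 5 were called lower and 0 higher (*Acacb*, *Scd1*, *Fasn*, *Acaca* and *Elovl6*), with a median log2 fold change of -1.94. The 10 summed to 1361, 1016 and 1500 CPM in KPF 1, 2 and 3, and to 11126, 14281 and 1894 CPM in WPF 2, 3 and 4. Of 11 genes of sterol synthesis, 10 were tested and 1 was called, the sterol desaturase *Sc5d* (-1.16), with a median of -0.42. Of 14 reductases and other redox users, 11 were tested and 2 were called lower, the thioredoxin reductases *Txnrd1* (-0.65) and *Txnrd3* (-0.84), again with a median of -0.42. The NRF2 list, of 17 genes with 14 tested, had 3 called lower, *Gstm1* (-1.20), *Txnrd1* and *Nfe2l2*, the gene of NRF2 itself (-1.29), with a median of -0.44. Of 18 known ChREBP targets, 11 were called lower and 0 higher with a median of -2.08, among them *Pklr*, the liver pyruvate kinase (-2.90). The 18 summed to 5137, 4515 and 4116 CPM in KPF 1, 2 and 3, and to 21090, 25696 and 4090 CPM in WPF 2, 3 and 4. In this sum WPF 4 lay below every KPF library. The uncalled *Txnip* was at 0.33. The last list shares *Acly*, *Fasn*, *Acaca*, *Elovl6* and *Scd1* with the lists above. Beside these counts, 3.98% of all tested genes were called lower and 5.83% higher, and 2.26% to 6.52% lower with 1 library left out. In these lists too 0 genes had an edgeR adjusted p under 0.05. With single libraries left out, the numbers called lower were 5 to 7 for fatty acid synthesis, 0 to 2 for sterol synthesis (0 without KPF 1, KPF 2 or WPF 3), 0 to 2 for the redox users (0 without WPF 4), 1 to 4 for the NRF2 list (1 without KPF 2) and 8 to 15 for the ChREBP targets.

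**Figure D5:**
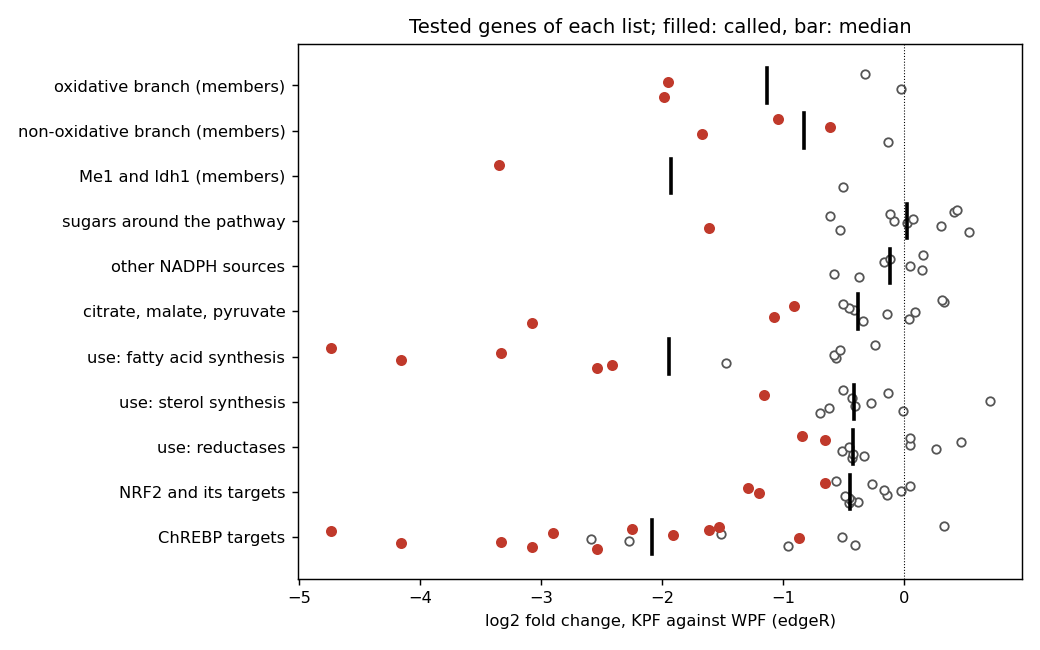
log2 fold change (KPF against WPF, edgeR) of each tested gene by list, filled red where called, with the median of the list as a bar. The medians of fatty acid synthesis (-1.94) and of ChREBP targets (-2.08) lie farthest below 0, next to the *Me1* and *Idh1* pair at -1.93.

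Markers of the cells a liver sample can hold were read beside these values. Among all tested genes 5.83% were called higher in KPF and 3.98% lower. The sum of 10 hepatocyte markers was 83631 to 109598 CPM in KPF and 107461 to 177092 CPM in WPF, and 0 of 10 were called. *Alb* alone had 65832, 69063 and 91390 CPM in KPF and 150690, 92643 and 90628 CPM in WPF, so the sum mostly followed this gene. The median log2 fold change of the 10 was -0.11. The sum of 10 stellate cell and fibroblast markers was 213 to 775 CPM in KPF and 147 to 163 CPM in WPF. Of the 10, 5 were called higher: the collagens *Col1a1*, *Col1a2* and *Col3a1*, with *Reln* and *Des*. The other 5 were not called. Their log2 fold changes were -0.35 (*Lrat*), 0.80 (*Dcn*), 0.55 (*Pdgfrb*), 0.46 (*Rgs5*) and 0.36 (*Colec10*). The highest sum was that of KPF 2, where *Des*, a gene also of muscle, made up 493 CPM, and the other KPF libraries had 470 and 213 CPM. Of 5 tested adipocyte markers 3 were called higher, with a sum over 10 genes of 81.4 to 207 CPM in KPF and 53.8 to 107 CPM in WPF, and *Cfd*, *Fabp4* and *Lipe* were the 3. *Cfd* had 4.25, 17.5 and 1.27 CPM in KPF and 0, 0.142 and 0 CPM in WPF. The defining *Adipoq* was at 0 in 3 libraries and at most 1.26 CPM in the others, *Plin1* was at most 1.08 CPM and *Lep* was at 0 in all. Of 10 endothelial markers 1 was called higher, with sums of 226 to 355 CPM in KPF and 206 to 266 CPM in WPF. Of 10 macrophage markers 0 were called, with sums of 206 to 272 CPM and 198 to 378 CPM. Without KPF 2, 6 stellate and 1 adipocyte markers were called higher. Of the mesothelium list 1 gene was tested and called higher, at sums of 4.58 to 15.1 CPM in KPF and 1.01 to 4.06 CPM in WPF. In the lists of cholangiocytes, neutrophils, lymphocytes, erythroid cells, pancreas and cell cycle 0 genes were called with all libraries, although the cell cycle gene *Mki67* had 184 CPM in KPF 3 against at most 51.5 CPM elsewhere. Without WPF 4, 2 erythroid, 2 cell cycle and 1 macrophage markers were called higher. Without KPF 3, 2 cell cycle and 1 macrophage markers were called lower. Leaving out KPF 2 gave 1 cell cycle and 1 macrophage marker higher and 1 hepatocyte marker lower. Leaving out KPF 1 gave 2 lymphocyte markers higher. The mesothelium call was lost without KPF 1, KPF 2, WPF 2 or WPF 4. The part of these other cells in the differences of the members was not tested. The muscle genes were high in KPF 2 alone, and without KPF 2 the log2 fold changes of the called members lay at -3.41 (*Me1*), -2.25 (*G6pdx*), -1.69 (*Pgd*), -1.75 (*Rpia*), -1.04 (*Tkt*) and -0.57 (*Taldo1*), of which *Taldo1* alone lost its call (5 members called, against 4.48% of tested genes called lower). With mitochondrial genes left out of the table the same 6 members were called, against 4.09%.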

How the data were processed

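Liver poly(A) RNA of 3 KPF and 3 WPF dams was sequenced. The authors deposited read counts per gene and FPKM values in the same table. Per the labels, the submitters' processing notes name cutadapt 1.9.1, HISAT2 2.2.1, HTSeq 0.6.1, DESeq2 and the build GRCm39. Their settings and the use of strand in counting are not given in the sources used here. All deposited FPKM values equal count over exonic length and library total within 0.005. Symbols matched 52073 of 56691 gene IDs. Table coordinates (GRCm39) were not combined with the GRCm38.p6 promoters.

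Counts were tested with edgeR 4.0.16 (R 4.3.3; TMM, quasi-likelihood) over the 10866 genes that reached a mean FPKM of 1. Calls needed an unadjusted p under 0.05 and 1.5-fold. Adjusted p values are Benjamini-Hochberg over all tested genes. Ratios used log2(FPKM + 0.1) and an exact permutation test over 6 libraries, whose smallest p is 0.1. The labels do not say that each library is a separate animal. The study gives n = 3 biological replicates for this experiment, and each library is counted here as 1 dam on that basis. The p values weigh the difference between the groups against the spread between these libraries. The alternatives were DESeq2 1.42.0, limma 3.58.1 on FPKM or TPM and with voom weights, other scalings and filters, each library left out and the replicate number as a block. Leaving out mitochondrial genes was chosen after seeing the data. Counting error is large for genes with few reads, such as *G6pdx* and *Rpia*.

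The members and the gene lists were chosen with earlier results of these data known. All 10 members are named, with the 3 genes nearest in pattern to each called member, *Mlxipl*, and the called genes of each pathway list, up to 5 by smallest p. Other genes were named after their values were seen: *Ikbkg* and *Kansl1l* for their overlap with members, *Idh2* and *Nadk* as uncalled sources, the copies at 0 reads, and the cell type markers.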

Additional observations from a re-analysis of the deposited data

How the results depend on the processing

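The direction held for *G6pdx*, *Pgls*, *Pgd*, *Rpia*, *Tkt*, *Taldo1*, *Me1* and *Idh1* under every alternative that tested them, with log2 fold changes from -3.86 to -2.5 for *Me1*, -2.47 to -1.23 for *G6pdx*, -2.59 to -1.44 for *Pgd* and -2.13 to -1.01 for *Rpia*. *Me1* and *Pgd* were called under all 18 alternatives. With a library left out *H6pd* ranged from -0.22 to 0.20, above 0 without KPF 2 or WPF 2 (0.08), and *Rpe* from -0.75 to 0.19, above 0 without KPF 2 or KPF 1 (0.01), while the *Idh1* to *Idh2* ratio turned to 0.05 without KPF 2. The number of called members was 6, and 4 to 7 under alternatives that kept all libraries (the 4 are of 7 members left at a mean FPKM of at least 5, without *G6pdx*, *Rpia* and *Rpe*), against 3.37% to 8.53% of tested genes called lower. It was 2 to 5 with 1 library left out, against 2.26% to 6.52%. *Idh1* was called with TPM (-0.83) and *G6pdx* was not called with voom weights. Members with an adjusted p under 0.05 numbered 2 with DESeq2, 4 without a filter, and 0 to 1 with a library left out (1 without WPF 4).

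Genes called numbered 1066, 2486 without a filter and 460 at a mean FPKM of at least 5, with 570 to 1619 when a library was left out. Those called higher numbered 634. They were 371 with library totals, 1576 without a filter, 255 at the higher FPKM minimum, 237 and 288 with limma on FPKM + 1 and + 0.1, 155 with TPM, and 324 to 910 with a library left out. Those called lower numbered 432. They were 716 with library totals, 910 without a filter, 205 at the higher minimum, 700 with limma on FPKM + 0.1, 927 with TPM, and 246 to 709 with a library left out. Genes with an adjusted p under 0.05 numbered 156 with DESeq2, 286 without a filter, 1 with TPM, and 0 to 5 with a library left out. Of the called genes 59.5% were higher with TMM, 34.1% after scaling by library totals and 14.3% with TPM, and the median of all genes moved from 0.02 to -0.12 and -0.21. The fold changes of *H6pd* and *Rpe* are within such shifts. The cause of these differences was not tested.

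The replicate block gave 680 higher and 551 lower genes and 5 called members (5.07% of tested genes were called lower), with *Me1* at -3.66 (adjusted p = 0.0796), *Pgd* at -2.59 and *Taldo1* at -0.45 without its call. Replicate numbers 2 and 3 occur in both groups, and the deviations of same-numbered libraries from their group means correlated at 0.0589 and -0.0368, so the numbers were not taken to pair the dams. Ratios with a library left out ranged from -3.18 to -1.49 (*Me1* to *Idh1*), -2.19 to -0.80 (*G6pdx* to *H6pd*), -0.73 to -0.07 (*Tkt* to *Taldo1*) and -1.07 to 0.05 (*Idh1* to *Idh2*). With 3 dams a group and 1 WPF dam near the KPF level, the size of each difference is uncertain, and *G6pdx* and *Rpia* rest on fewer than 100 reads in 4 of 6 libraries.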
